A study of Mus musculus with 3 samples.

Results

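The genes described here are antisense long non-coding RNAs: transcripts that GENCODE M21 annotates on the strand opposite a known gene. They were measured in cytosol prepared from mouse macrophages grown out of bone marrow. A gene was taken as a member when its biotype was antisense and its expected count, the estimated number of reads from it, averaged 10 or more over the 3 libraries. This gave 354 members of 2959 annotated antisense genes, among 55536 genes in the tables and 13625 genes of any biotype at the same threshold. The other 2605 antisense genes lay below it, and 1654 of these had no count in any library. The choice rests on the levels themselves, so the levels below describe the members and no test supports them.

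The libraries were made from ribosomal RNA-depleted total RNA of C57BL/6J primary macrophages. The cells received lipid A, the membrane anchor of bacterial lipopolysaccharide, at 100 ng/ml for 12 h, were washed and kept for 12 h, and were taken at 0 min of another lipid A stimulation. The 3 libraries are biological replicates 1, 2 and 3 of this 1 group and carry 1 donor identifier. Whether they came from separate animals is not stated, so differences between them may be technical. With 1 group there is no contrast between treatments, and nothing below measures an effect of lipid A. In bulk RNA, fewer cells that express a gene and less RNA per cell cannot be told apart.

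Antisense RNAs can act in several ways. Some silence or support the gene they overlap while they are being transcribed, some bind the sense messenger RNA or chromatin regulators, and for many no function is known. They are mostly transcribed at low levels, and many stay in the nucleus, so a cytosolic fraction samples them from outside their usual compartment. Airn and Kcnq1ot1, which are both members, are long imprinted RNAs that silence neighbouring genes in cis from the paternal chromosome. Tug1 is a widely expressed long RNA that begins beside Morc2a, and Zeb2os overlaps the 5′ end of Zeb2 and is linked to control of Zeb2 splicing.

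The total expected counts were 28981178, 53119941 and 46783133 for replicates 1, 2 and 3, and a count of 0 allows up to 0.104, 0.0565 and 0.0641 CPM, from 3 counts of each total. These limits cover counting error only. All 10 macrophage markers were at 10 TPM or more in every library. The summed level of the 5 neutrophil markers was 2.18 to 3.73 TPM, and that of each list of 3 markers for B cells, T cells, mast cells, fibroblasts and erythroid cells was at most 0.08 TPM. Of the 10 RNAs on a list of nuclear-retained transcripts, Tsix and Meg3 were at 0 and the other 8, 2 of them members, were higher in replicate 3 than in the mean of replicates 1 and 2. Malat1, a nuclear speckle RNA, was at 848, 543 and 7399 CPM, and Neat1, the scaffold of paraspeckles, at 94.7, 60.5 and 527 CPM.

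Most members were spliced. In 301 of 354 the annotation held a transcript with more than 1 exon, and 53 were unspliced. The exonic length ran from 346 to 93092 bases with a median of 2129. A splice junction is printed for 8 members whose values are discussed below, because the joined exons give a sequence that belongs to the antisense transcript and not to a messenger RNA of the other strand. Each line runs from the last 15 bases of the first exon, in lower case, to the first 15 bases of the second exon, in capitals, 5′ to 3′ on the antisense strand of GRCm38 and in DNA letters, for the member's most abundant transcript.
4930430E12Rik: tagctgccttgggggTGAGCCCACCCATTG
Brip1os: ggattgttcgagcagGTTAAAAGGCCTGCA
A530040E14Rik: gccctcagcatccagCTGGTGAACCTGATT
Rab10os: tggacgtagcttcagGTGACCTCACTGACC
Gm13822: agatttattgtcatgCATAGGCTGATGACC
Gm28913: cacagcagccacaggGAAAAATACACCTAC
Gm28914: ccctggagagcacagAATAAAGATTCACTC
Airn: tcctggggaactgagCCCACCACCTACCAG

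The first 4 of these are among the 15 members with the highest mean TPM (transcript abundance normalised for length and for the library total). Gm13822 lies opposite Oasl1, Gm28913 and Gm28914 lie opposite Ikbke, and Airn's first intron of 73071 bases is the longest among those printed.

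The members were scarce. Together they took 0.0753%, 0.0680% and 0.109% of the expected counts in replicates 1, 2 and 3, which gives 0.0842% ± 0.0221 (SD, n = 3). The median member was at 0.25, 0.195 and 0.58 TPM. A mean below 1 TPM was found for 272 members, 57 members reached 1 TPM in all 3 libraries, and 8 had a mean of 10 TPM or more. In single libraries 20, 11 and 1 members had no count. A count of 10 or more in every library was reached by 191 members, so the others passed through 1 or 2 libraries. At the threshold, 5430402O13Rik stood just inside with 10 counts in each library, while Gm45188 and Gm16316 had 1, 1 and 28 counts each and also averaged 10. Just outside were BC037039, Gm45709 and Ube4bos1, with means of 9.95, 9.90 and 9.74 counts.

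**Figure D1:**
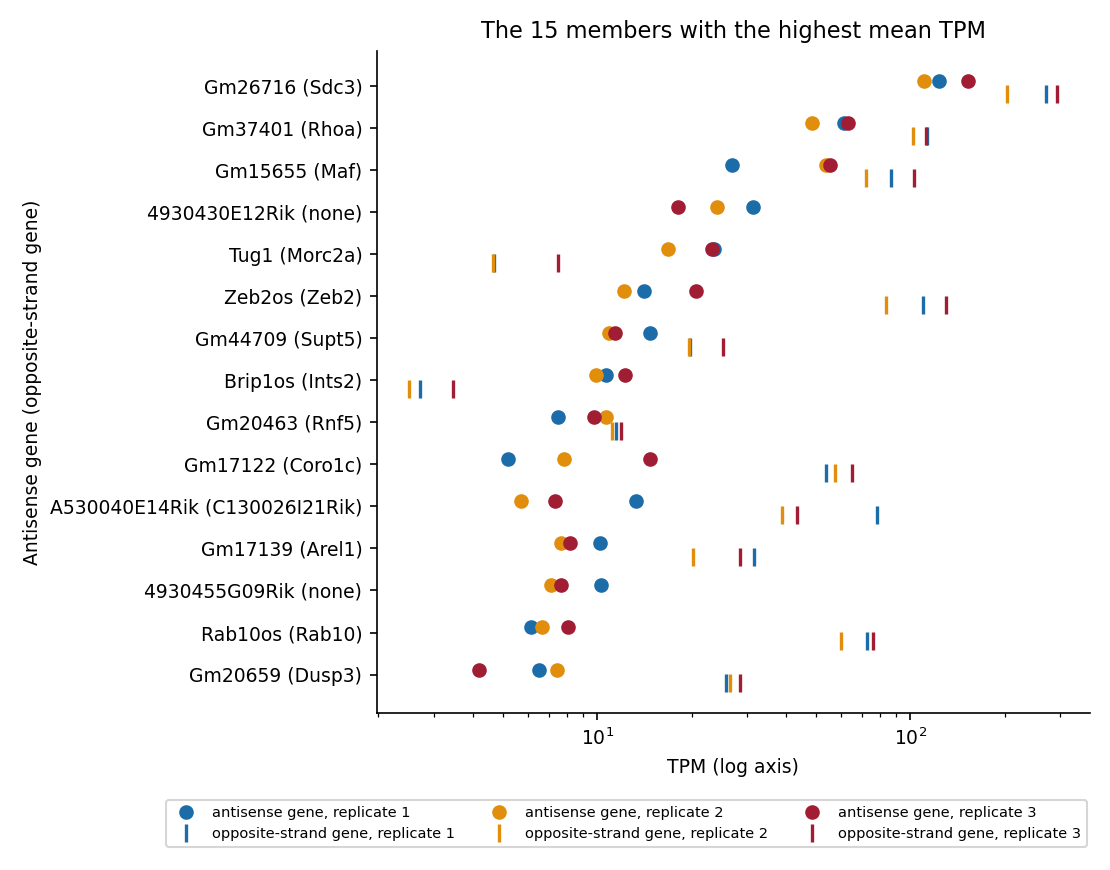
Level in TPM (horizontal log axis) of the 15 members with the highest mean TPM, 1 row per member with its opposite-strand gene in parentheses. Points are the member and vertical ticks the opposite-strand gene in each of the 3 replicates. Only Tug1 and Brip1os lie to the right of their opposite-strand gene in every replicate. 4930430E12Rik and 4930455G09Rik have no opposite-strand gene by the rule used.

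The member with the highest level was Gm26716 (chr4:130824394-130826313, minus strand), inside the gene of the heparan sulfate proteoglycan Sdc3. It was at 124, 110 and 152 TPM, or 129 ± 21.6 TPM (SD, n = 3), and Sdc3 was at 271, 204 and 295 TPM. All 415 of its exonic bases lie within exons of Sdc3. The second, Gm37401 (chr9:108337089-108338273, minus strand), was at 61.5, 48.4 and 63.3 TPM, and 324 of its 347 exonic bases lie in exons of the small GTPase gene Rhoa, which was at 113, 102 and 112 TPM. The third, Gm15655 (chr8:115705078-115707233, plus strand), was at 26.9, 53.9 and 55.5 TPM and lies wholly within exons of Maf, a transcription factor of macrophages. Maf was at 86.9, 72.3 and 103 TPM, so the lowest library for Gm15655 was not the lowest for Maf.

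Among the 15, 7 had at most 33% of their exonic bases in exons of the other strand. 4930430E12Rik (chr4:6352105-6357530, minus strand) had no gene opposite it by the rule used. It was at 31.3, 24.2 and 18.1 TPM, highest in replicate 1. Tug1 (chr11:3639785-3649673, minus strand) was at 23.6, 16.8 and 23.3 TPM and rests on 4377, 6024 and 6038 expected counts, the largest counts of any member. Morc2a, a chromatin-silencing ATPase gene whose 5′ end Tug1 overlaps by 483 exonic bases, was at 4.67, 4.65 and 7.48 TPM. Tug1 was thus above its opposite-strand gene in each library, by 1.90 on the log2 scale of mean TPM with 0.1 added to both.

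Zeb2os (chr2:45110707-45114087, plus strand) was at 14.1, 12.2 and 20.6 TPM. Zeb2, a transcription factor that helps set macrophage identity, was at 110, 83.3 and 130 TPM. In TPM both genes were lowest in replicate 2 and highest in replicate 3. In counts scaled for library size they did not share this order. The log2 ratio of replicate 3 to the mean of the others was then 0.364 for Zeb2os and -0.098 for Zeb2. Brip1os (chr11:86201370-86304443, plus strand) spans the whole of Ints2, a subunit gene of the Integrator complex. It was at 10.7, 9.94 and 12.2 TPM against 2.72, 2.51 and 3.46 TPM for Ints2, and Med13, a Mediator subunit gene that is also opposite, was at 14.1, 11.5 and 14.6 TPM. A530040E14Rik (chr1:85105946-85114035, plus strand), inside C130026I21Rik, was at 13.3, 5.70 and 7.35 TPM, and C130026I21Rik showed the same order of libraries at 78.2, 38.8 and 43.5 TPM. 4930455G09Rik was at 10.3, 7.11 and 7.68 TPM with no gene opposite. Rab10os (chr12:3235504-3250377, plus strand), whose 3′ end meets that of the vesicle-transport GTPase gene Rab10, was at 6.15, 6.65 and 8.05 TPM against 72.6, 60.0 and 76.1 TPM.

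The other 5 of the 15 lie over 90% within exons of the opposite strand. They were Gm44709 opposite the elongation factor gene Supt5, Gm20463 opposite the ubiquitin ligase gene Rnf5, Gm17122 opposite the actin regulator gene Coro1c, Gm17139 opposite the ubiquitin ligase gene Arel1 and Gm20659 opposite the phosphatase gene Dusp3. Their mean levels ran from 6.04 to 12.4 TPM. All were below their opposite-strand genes, the nearest being Gm20463 at 9.31 ± 1.63 TPM against 11.5 ± 0.380 TPM for Rnf5 (SD, n = 3).

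**Figure D2:**
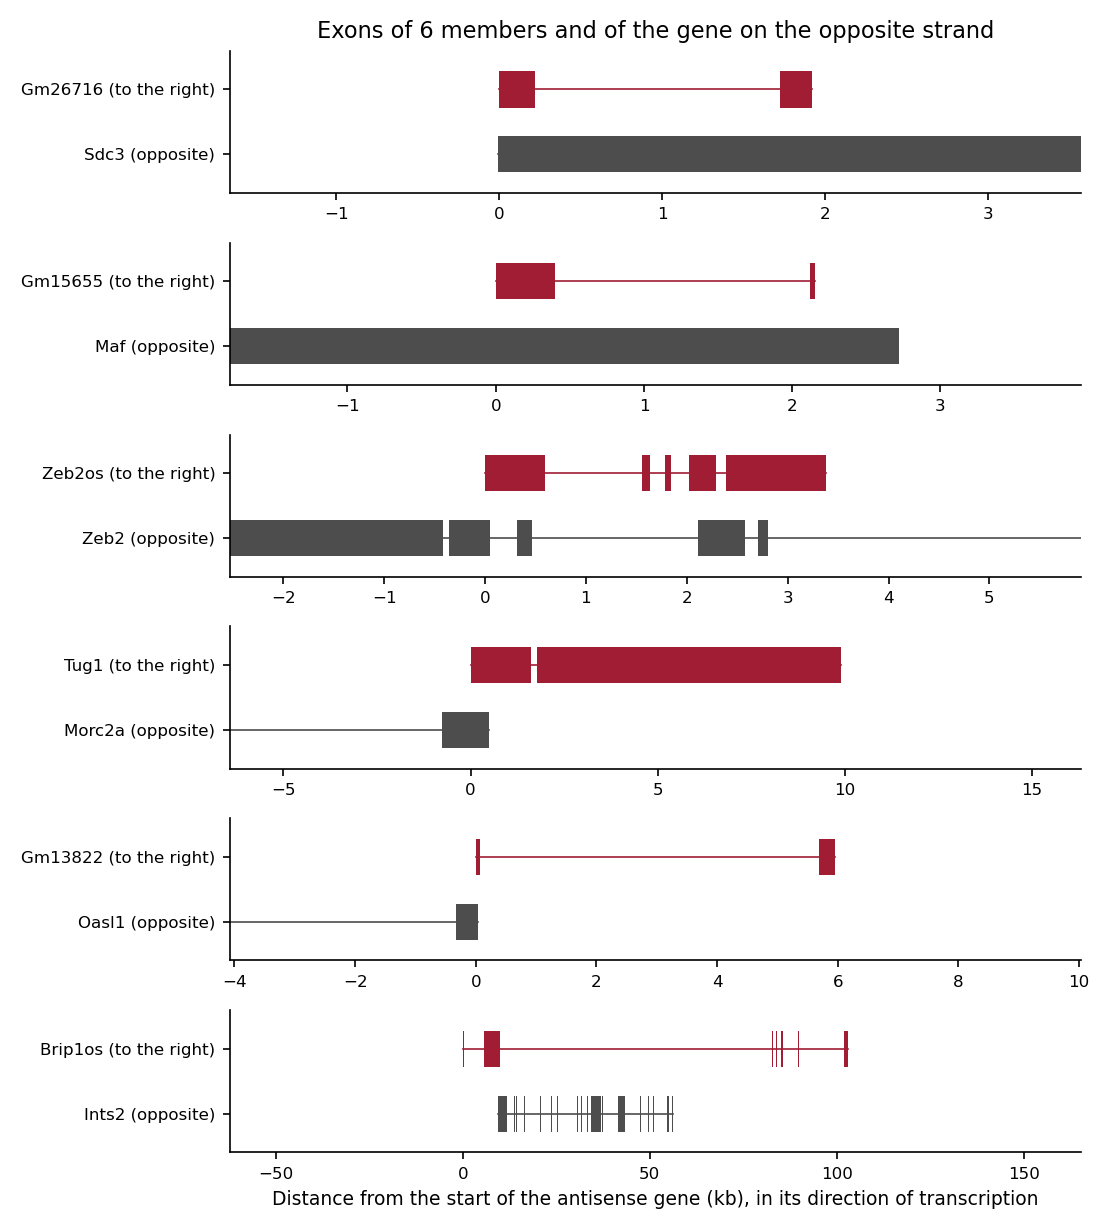
Exons (boxes) of 6 members and of the gene on the opposite strand, drawn over all annotated transcripts along the distance in kilobases from the start of the antisense gene, which is transcribed to the right. The exons of Gm26716 and Gm15655 lie wholly inside exons of Sdc3 and Maf. Those of Zeb2os lie partly in exons of Zeb2, Tug1 and Gm13822 touch Morc2a and Oasl1 only at the 5′ ends, and Brip1os spans Ints2.

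An opposite-strand gene was assigned to 347 members, protein-coding for 345 of them. These were 336 different genes, since 9 genes had more than 1 member opposite. Of the 347, 148 lay inside the opposite-strand gene, 94 overlapped it at the 5′ ends (head to head), 80 at the 3′ ends (tail to tail), 17 contained it, and 8 started within 1000 bases of it in the other direction without overlap (divergent). The remaining 7 had none by these rules.

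Members were mostly far below the gene opposite. The median log2 ratio of mean TPM, with 0.1 added to both, was -4.12, which is 17.4-fold lower, and it was -4.20, -4.36 and -3.82 in replicates 1, 2 and 3. Of 347 members 297 were below their opposite-strand gene and 50 above, and 223 were more than 10-fold below it. The opposite-strand genes were at 9.40 TPM in the median. They were at 10 TPM or more for 165 members and under 0.1 TPM for 32. Across the 347 pairs, which share libraries and annotation, Pearson's r of the log2 levels was 0.151.

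**Figure D3:**
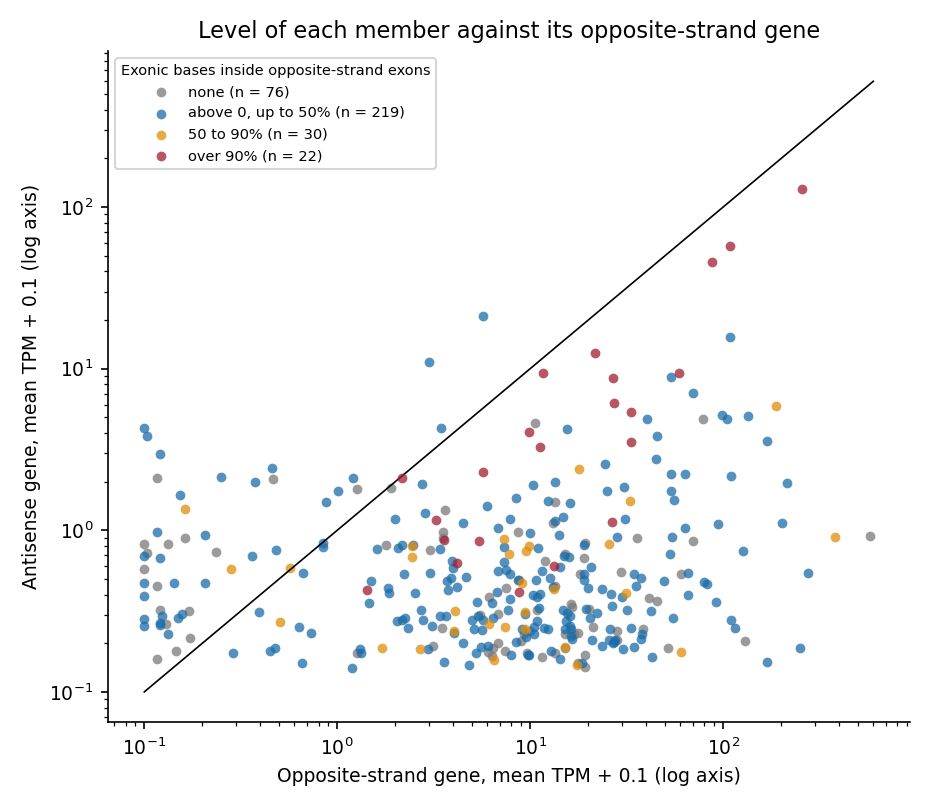
Mean TPM of each of 347 members plus 0.1 (vertical log axis) against that of its opposite-strand gene plus 0.1 (horizontal log axis), coloured by the share of the member's exonic bases inside exons of the opposite strand, with the line of equal levels. Of the points 297 lie below the line. The 22 members with over 90% overlap (red) climb with the opposite-strand gene and none lies above it, and the rest form a cloud with a Pearson's r between -0.101 and 0.212 in each class.

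The members that exceeded most the opposite-strand gene given by the longest overlap lay opposite genes that are close to silent in these cells. 9530082P21Rik was at 4.09, 2.72 and 4.35 TPM, and Kremen2, a receptor gene of the Wnt pathway, at 0.01, 0 and 0 TPM. Sp3os was at 4.80, 3.06 and 4.66 TPM opposite Gm11084, which is listed at 0. A second gene opposite Sp3os, the transcription factor gene Sp3, was at 22.41, 17.96 and 21.22 TPM, and Flywch1, also opposite 9530082P21Rik, was at 6.83, 7.67 and 11.4 TPM. Taking the most abundant gene of the other strand in each case, 37 members and not 50 were above it. Trmt61b, which the annotation classes as antisense under that symbol, was at 3.78, 2.41 and 2.40 TPM opposite Spdya, a meiotic cell-cycle gene with a mean of 0.02 TPM. All 3 were above the opposite-strand gene of the overlap rule in every library.

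Similar values were found opposite tissue-restricted receptors and enzymes. Plxna4os1, inside the semaphorin receptor gene Plxna4 and without shared exons, was at 2.24, 1.28 and 2.48 TPM while Plxna4 was at most 0.03 TPM. Gm31597 was at 2.05 ± 0.522 TPM (SD, n = 3) opposite the sulfotransferase gene Sult2b1, and 6330418K02Rik at 1.26 ± 0.0907 TPM opposite the sulfotransferase gene Gal3st4, each above every value of its opposite-strand gene. Bach2os was at 2.04, 2.33 and 0.31 TPM against at most 0.08 TPM for Bach2, a transcriptional repressor best known from lymphocytes. Its scaled counts were also lowest in replicate 3, at 1.02, 1.09 and 0.592 CPM, though by less than its TPM. Gm27177 opposite Loxl2, A630012P03Rik opposite Gpc3 and Gm30329 opposite 1700011L22Rik completed the 10 highest ratios, at mean levels of 0.873, 0.620 and 0.717 TPM, and Entpd4b, also opposite Gm27177, was at 2.58, 3.11 and 4.33 TPM.

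Members that lie almost wholly within exons of the other strand had higher levels than the rest. The classes used here were chosen after the values were seen. No exonic base was shared by 83 members, up to 50% by 219, 50 to 90% by 30 and over 90% by 22. The median mean TPM was 0.287, 0.340 and 0.352 in the first 3 classes and 3.29 in the last. The last class was also shorter, with a median of 561 exonic bases against 2023, 2405 and 1660 in the order of the classes, and a shorter gene needs a higher TPM to reach the same count. The median log2 ratio to the opposite-strand gene was -4.67, -4.15, -4.18 and -1.77 in the same order. In the last class, Pearson's r of the log2 levels of member and opposite-strand gene was 0.833 over 22 pairs, which share exons, libraries and, where reads are not told apart by strand, reads. The sources used here do not give whether the authors counted by strand. The listed signal tracks are of all and of unique reads, none by strand. It is therefore not known whether reads of a member and of the gene opposite were told apart in shared exons.

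The deposited tables include a second quantification, made from the reads without the genome alignment, and it differed most for the same 22 members. Their median count was 99.3 in the alignment-based tables and 5.63 in the read-derived ones. Of the 22, 13 were below a mean of 10 read-derived counts, against 15 of all 354 members. Gm26716, the member with the highest TPM, had 1011, 2076 and 2062 counts from alignments and 2.63, 7.01 and 5.54 from reads. Gm17122, Gm20659 and Gm47248 had none from reads in any library. The class was not uniform, since Gm15655 had 251, 1142 and 847 counts from alignments and 441, 1438 and 987 from reads, and Gm37401 kept 345.7 of a mean of 497.4. The quantifier's own posterior SD of the count was 15.9% of the mean in the median of this class and 14.6% in the class of 50 to 90%, against 0% for members without shared bases.

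**Figure D4:**
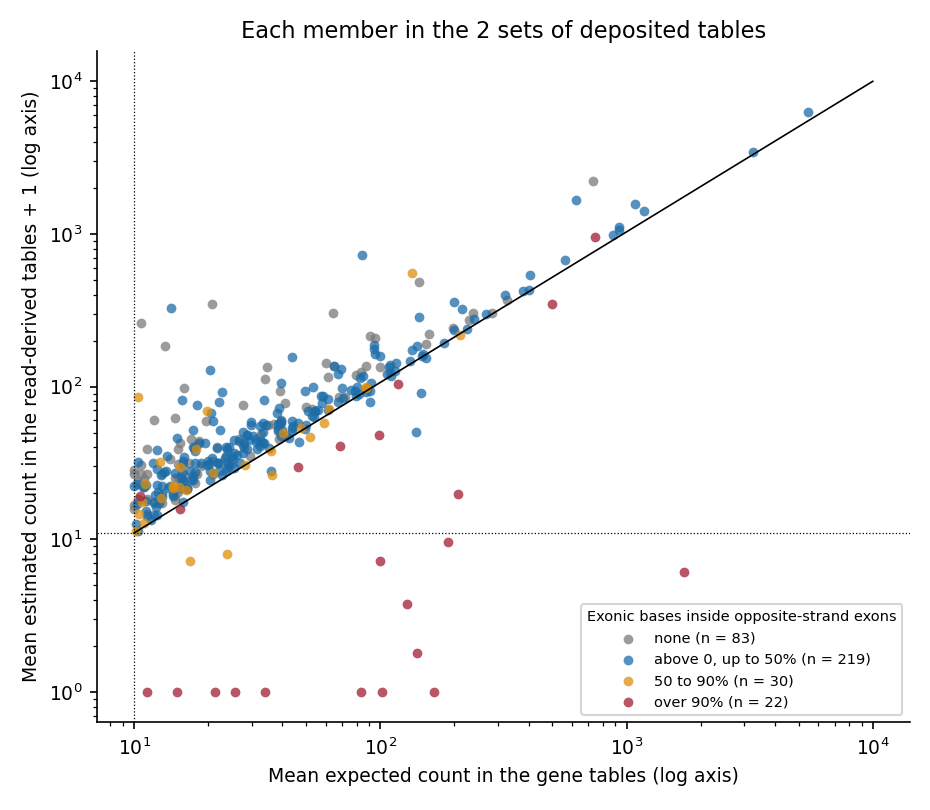
Mean expected count of each of 354 members in the alignment-based gene tables (horizontal log axis) against the mean estimated count in the read-derived tables plus 1 (vertical log axis), coloured by the share of exonic bases inside exons of the opposite strand. The solid line marks equal counts and dotted lines mark 10 counts on each axis. The 15 members below the horizontal dotted line include 13 of the 22 with over 90% overlap (red).

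Among the members without such overlap the 2 quantifications mostly gave higher counts from reads. The median was 21 from alignments and 44.4 from reads for members without shared bases, and 29.4 and 46.6 for those with up to 50%. None of these 302 members was below 10 read-derived counts. The same threshold on the read-derived tables selected 695 antisense genes, of which 339 are shared. The shared genes are 95.8% of the 354 members and 48.8% of the 695. Among all antisense genes opposite a gene at 10 TPM or more, 39 had over 90% overlap, of which 17 had no count in any library and 13 were members. Of 276 with up to 50%, 28 had no count and 106 were members. Of 50 with 50 to 90%, 19 had no count and 10 were members, and of 175 without shared bases 39 and 36.

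Of 10 antisense genes on a list of well-described antisense RNAs, 5 were members, and 4 of these are described here. Zeb2os is given above. Dnmt3aos (chr12:3859293-3862244, minus strand), inside the DNA methyltransferase gene Dnmt3a, was at 3.23, 2.29 and 2.52 TPM against 54.4, 38.8 and 40.9 TPM for Dnmt3a, with replicate 1 highest in both. Airn (chr17:12741311-12860136, plus strand) had 22, 37 and 121 counts and was at 0.60, 0.43 and 1.99 TPM, while Igf2r, the receptor gene it silences on the paternal chromosome in most tissues, was at 10.5, 11.2 and 17.5 TPM. Kcnq1ot1 (chr7:143203458-143296549, minus strand) had 45, 50 and 3138 counts over 93092 exonic bases and was at 0.01, 0.01 and 0.48 TPM. Both imprinted RNAs were highest in replicate 3. Of the 5 below the threshold, Tsix, Uchl1os and Foxo6os were at 0, and Nespas and Il1bos had at most 5 counts in any library.

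Antisense genes opposite innate immune genes were mostly below the threshold, as were antisense genes in general, of which 12.0% were members. Opposite a list of 77 interferon and antiviral genes lay 7 antisense genes, 2 of them members. Gm13822 (chr5:114917318-114923277, minus strand) starts head to head with Oasl1, an interferon-induced antiviral gene, and shares 38 exonic bases with it. It had 38, 46 and 34 counts and was at 7.45, 3.67 and 3.83 TPM, and Oasl1 was at 158, 113 and 133 TPM, both highest in replicate 1. The ratio of their counts gave no call between libraries (adjusted p = 0.53, chi-square test, Benjamini-Hochberg). Gm45479, in an intron of Irf2, a regulator of interferon-responsive genes, had 1, 0 and 54 counts.

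Opposite 56 genes of NF-κB and Toll-like receptor signalling lay 10 antisense genes, and 2 were members, both opposite Ikbke, a kinase gene of the interferon-inducing pathway. Gm28913 (chr1:131263330-131266749, plus strand) had 5, 2 and 54 counts and Gm28914 (chr1:131259507-131260553, plus strand) 4, 2 and 80. Both were highest in replicate 3, and Ikbke was at 56.3, 46.2 and 87.8 TPM. None of the 2 antisense genes opposite 43 cytokine and inflammatory genes was a member, and Il1bos, opposite Il1b, had 1, 5 and 3 counts.

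Opposite 56 macrophage transcription and chromatin genes lay 14 antisense genes, and 5 were members: Gm15655, Zeb2os, Dnmt3aos, Gm11175 and 1700113A16Rik. Gm11175, wholly inside the single exon of the AP-1 gene Jund, had 49.9, 231 and 103 counts from alignments and 0, 4.34 and 4.03 from reads. 1700113A16Rik, tail to tail with the MADS-box transcription factor gene Mef2d, was at 0.51, 0.47 and 1.05 TPM against 9.67, 10.3 and 12.8 TPM.

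The members differed between libraries, and most of those that did were highest in replicate 3. Each gene was compared with a chi-square test of its counts against TMM-scaled library sizes, adjusted by Benjamini-Hochberg over all genes tested, and called when the adjusted p was under 0.05 and the highest library was at least 2 times the lowest. The test covers counting error and compares these libraries only. By this rule 203 of 354 members (57.3%) were called, against 16.2% of all 13636 genes tested. Of the 354, 180 (50.9%) were called and highest in replicate 3, against 11.3% of all genes. Among 328 intergenic long non-coding RNAs (lincRNAs), 47.87% were called and 39.63% called and highest in replicate 3. Among 203 genes of the processed transcript biotype these shares were 46.31% and 39.41%. Among 11540 protein-coding genes they were 8.12% and 3.76%. Replicate 1 was highest for 13 called members, or 3.67% against 2.22% of all genes, and replicate 2 for 10, or 2.82% against 2.6%. The median log2 ratio of replicate 3 to the mean of the others was 0.908, a 1.88-fold difference, with 266 of 354 members higher in replicate 3. With the 5 members at 0 in both replicates 1 and 2, and the 1 at 0 in replicate 3, set to a floor of 3 counts per library, and no count added to the others in place of the 0.5 added above, it was 0.927. The median for the opposite-strand genes was -0.011. Without replicate 3, 29 of the 234 members still tested were called (12.4%), against 4.81% of all genes.

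A member that passes the count threshold through replicate 3 alone has to be high there, so the choice of members bears on these counts. Antisense genes were therefore also chosen on replicates 1 and 2 alone, an alternative added after the values were seen. This left 232 genes, of which 68 (29.3%) were called and highest in replicate 3 and 13 were called and lowest there. Over all 12629 genes chosen in the same way, 4.77% were called and highest in replicate 3 and 2.39% called and lowest there. The median log2 ratio of replicate 3 to the others was then 0.223 for the antisense genes and -0.071 for all genes. Other long non-coding RNAs chosen so gave close values, with 69 of 258 lincRNAs (26.7%) called and highest in replicate 3, and protein-coding genes gave 2.45%. The nuclear-retained RNAs given above were higher in the same library, and their part in this difference was not tested.

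**Figure D5:**
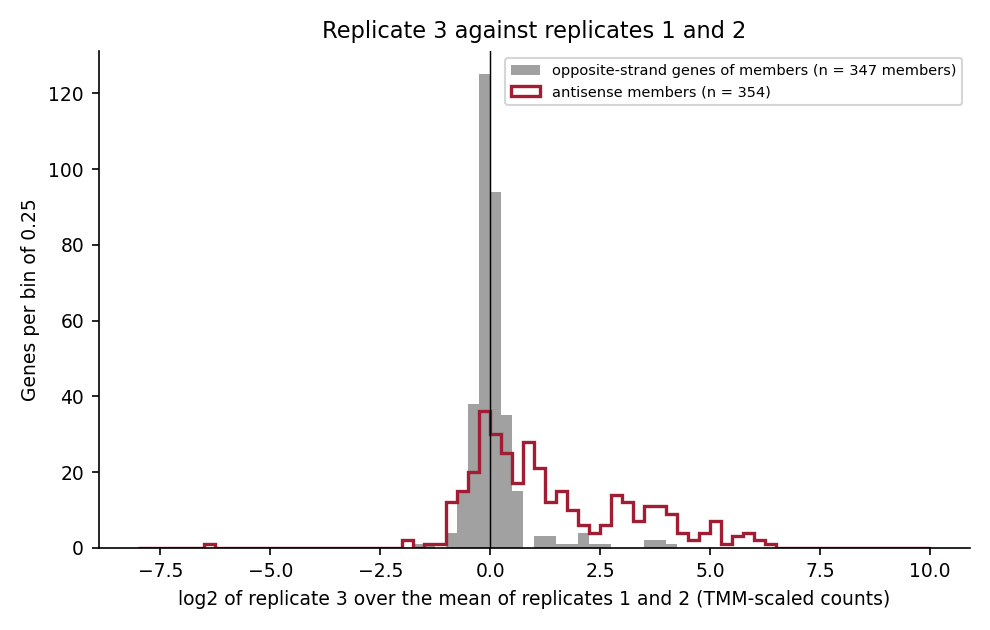
Number of genes in bins of 0.25 (vertical axis) along the log2 ratio of replicate 3 to the mean of replicates 1 and 2 in TMM-scaled counts (horizontal axis), for the 354 members (red outline) and the opposite-strand genes of 347 members (grey). The opposite-strand genes centre on a median of -0.011, and the members spread to the right with a median of 0.908.

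The ratio of a member to its opposite-strand gene was tested directly, which needs no scaling of the libraries. Both genes had a mean of 10 or more counts in 318 pairs. The ratio was called different between libraries in 186 of these (58.5%), against 31.5% of 4300 genes of any biotype that have an opposite-strand gene. It was called and highest in replicate 3 in 167 (52.5%), against 15.1%. For lincRNAs the ratio was called different in 53.45% of 116 pairs and for processed transcripts in 50.79% of 126. For protein-coding genes it was called different in 24.88% of 3445 pairs. The choice of members through replicate 3 bears on these counts too. With both genes of a pair chosen on replicates 1 and 2 alone, an alternative added after the values were seen, 61 of 199 pairs (30.7%) were called and highest in replicate 3, against 8.35% of 3581 pairs of any biotype. Of the 200 members called between libraries that have an opposite-strand gene, 6 had an opposite-strand gene that was itself called. Any opposite-strand gene with too few counts for the test was taken as not called, while the next share covers tested genes only. Over all 11540 protein-coding genes tested between libraries, 8.12% were called. Without replicate 3 the ratio was called different in 25 of 201 pairs with a member (12.4%), against 5.63% of all pairs.

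The share of members called and highest in replicate 3 varied with the layout. It was 87 of the 148 inside members, 48 of the 80 tail-to-tail, 36 of the 94 head-to-head, 6 of the 17 that contain the other gene and 0 of the 8 divergent ones. Over all genes tested the share was 11.3%. The median log2 ratio of replicate 3 to the others was 1.52 for the inside members, 1.14 for the tail-to-tail, 0.54 for the head-to-head, 0.307 for the containing and 0.007 for the divergent ones, and no divergent member was called in any direction. It was 2.57 for the 83 members without bases in opposite-strand exons, 0.916 for the 219 with up to 50%, 0.743 for the 30 with 50 to 90% and -0.20 for the 22 with over 90%. In the last class 9 were called and 2 of these were highest in replicate 3. These values include members that reached the threshold through replicate 3, and most medians were nearer to 0 without them. Among antisense genes chosen on replicates 1 and 2 alone, the median log2 ratio was 0.026 for 76 inside, 0.605 for 54 tail-to-tail, 0.224 for 73 head-to-head, 0.274 for 15 containing and 0.007 for 8 divergent genes. It was 0.074 for 37 genes without shared bases, 0.37 for 156 with up to 50%, 0.336 for 18 with 50 to 90% and -0.229 for 21 with over 90%. Of the 76 inside genes 20 were called and highest in replicate 3, and of the 54 tail-to-tail genes 21. Of the 73 head-to-head genes 20 were, of the 15 containing 5 and of the 8 divergent 0. Over all genes chosen in the same way the share was 4.77%. Differences between these classes were not tested.

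Single members show the counts behind the largest ratios. The 10 called members with the largest ratios between libraries, with 0.5 counts added, were extreme by their choice, and 9 of the 10 were highest in replicate 3. Those highest in replicate 3 reached a mean of 10 counts only through that library, so they had to be high there. Of the 10, all but Gm15356 had a library at 0, so their place depends on the added count. With each count of 0 set to 3, the ratios of these 9 were 14.1 to 47.0. The lowest library could then be a library with 1 or 2 counts. Several members without a zero had larger ratios, Gm7480 with 4, 2 and 178 counts among them. Gm15356, in an intron of the ubiquitin ligase gene March1, had 6, 1 and 142 counts while March1 was at 50.4, 31.2 and 41.6 TPM. Gm44752 inside Lrrk1 had 0, 2 and 87 counts, Tmcc3os had 0, 2 and 82, and C78197 inside Stx8 had 0, 0 and 44. Gm17477 inside Senp6 had 4, 0 and 49 counts, Gm19667 inside Atp2c1 had 1, 0 and 44, and Gm37915 tail to tail with Mfsd9 had 11.5, 0 and 39.1. The opposite-strand genes of these 7 were not chosen by their library ratio. They had no such order, with log2 ratios of replicate 3 to the others between -0.27 and 0.142. The 1 exception among the 10 was Gm47248, wholly within exons of Trim34a, with 33.8, 43.5 and 0 counts.

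Of the 9 genes with more than 1 member opposite, 4 had members that were all called and highest in replicate 3, 1 had members none of which was called, and 4 had 1 called and 1 uncalled member. Of all members 50.9% were called and highest in replicate 3, against 11.3% of all genes. These sets were picked out after their values were seen. Lrmda had 3 members opposite: 4930405A10Rik with 1, 0 and 53 counts, Gm10248 with 1, 2 and 36, and Gm7480 with 4, 2 and 178. Arhgap10 also had 3: 0610038B21Rik with 26.1, 74.1 and 147 counts, 4933421D24Rik with 0, 1 and 30, and Gm45406 with 1, 0 and 32. All 6 were called and highest in replicate 3, as were both members opposite Ikbke and both opposite Uvrag. Kif3c had 1110002L01Rik with 70.5, 98.3 and 93.4 counts and Gm48512 with 71.3, 119 and 108, and neither was called. The members opposite Arhgap27, Dop1b, Rapgef3 and Usp54 differed in their call. Members opposite 1 gene share a locus and are not independent.

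The number of CG dinucleotides near RefSeq start sites varied with the layout, a difference that was not tested. RefSeq promoter windows, from 250 bases before to 50 after a start on GRCm38.p6, matched 147 members by symbol, chromosome and strand. In 106 of these the RefSeq start lay within 300 bases of the outermost GENCODE M21 start, and the largest offset was 144556 bases. The values below cover all 147, so some windows are not at the M21 start that defines the layout. The dinucleotide CG, read on the given strand and the same on the other, occurred in 98.6% of these windows and in 94.2% of all 27025 windows, 1 per symbol, with a median of 11 against 7 occurrences. Among the members the median was 29 in 7 divergent, 25 in 41 tail-to-tail, 18 in 44 head-to-head, 5 in 6 containing and 5 in 47 inside members. The windows held 0 to 51 occurrences, and 3 are printed as examples, with each CG in capitals: Tug1 (chr11:3648765-3649064, minus strand, 37 occurrences, 71.3% G and C), Dnmt3aos (chr12:3862195-3862494, minus strand, 2 occurrences, 54.7%) and Airn (chr17:12741061-12741360, plus strand, 3 occurrences, 45.7%). The start of Tug1 in RefSeq lies 859 bases from its outermost start in GENCODE M21, and those of Dnmt3aos and Airn coincide.
Tug1: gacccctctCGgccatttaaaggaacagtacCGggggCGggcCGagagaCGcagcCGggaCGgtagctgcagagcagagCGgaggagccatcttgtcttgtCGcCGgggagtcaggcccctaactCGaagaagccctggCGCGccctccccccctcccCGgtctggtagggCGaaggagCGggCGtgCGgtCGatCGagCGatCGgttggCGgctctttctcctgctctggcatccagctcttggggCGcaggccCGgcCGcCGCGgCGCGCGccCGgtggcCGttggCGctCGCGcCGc
Dnmt3aos: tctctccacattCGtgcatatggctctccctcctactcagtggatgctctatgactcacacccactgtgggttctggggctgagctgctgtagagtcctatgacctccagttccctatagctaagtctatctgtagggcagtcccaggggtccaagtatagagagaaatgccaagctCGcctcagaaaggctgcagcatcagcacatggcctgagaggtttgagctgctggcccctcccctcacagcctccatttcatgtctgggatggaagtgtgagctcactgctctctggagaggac
Airn: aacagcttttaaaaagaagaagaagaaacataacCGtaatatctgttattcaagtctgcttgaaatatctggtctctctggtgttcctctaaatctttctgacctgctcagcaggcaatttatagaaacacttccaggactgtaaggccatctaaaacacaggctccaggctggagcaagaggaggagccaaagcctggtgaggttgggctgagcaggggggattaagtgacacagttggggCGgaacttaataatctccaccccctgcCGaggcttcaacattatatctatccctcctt

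The 7 members without an opposite-strand gene include 2 of the 15 most abundant. The nearest gene on the other strand was 8120 bases from 4930430E12Rik (Sdcbp, an adaptor protein gene at a mean of 292 TPM) and 1996 bases from 4930455G09Rik (Tmem51, at 11.4 TPM). Gm43079 was at 3.37, 2.28 and 3.82 TPM and F630028O10Rik at 0.97, 0.36 and 3.13 TPM. D730005E14Rik was at 1.67, 0.73 and 2.00 TPM, Gm16287 at 0.37, 0.49 and 0.68 TPM and Gm15859 at 0.04, 0.06 and 1.19 TPM. Of the 7, 3 were called between libraries and these 3 were highest in replicate 3. Of all members 57.3% were called and 50.9% called and highest in replicate 3, against 16.2% and 11.3% of all genes tested.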

How the data were processed

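Per the labels' protocols, RNA was from a cytosolic fraction and depleted of ribosomal RNA. Per the deposited README, the authors derived gene tables from alignments to mm10 with annotation M21, and transcript tables directly from the reads; the sources used here do not give the aligner, the quantifier or the use of strand. In the authors' deposited tables an expected count is the estimated number of reads from a gene, with shared reads split, so members that share exons with other genes are uncertain. The deposited TPM and the deposited FPKM are normalised for length and library total, per the file headers. Rows naming no gene were left out.

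Rounded expected counts were scaled by TMM (edgeR 4.0.16, R 4.3.3). The chi-square test took genes whose rounded counts averaged 10 or more, with 0.5 counts added for ratios. It was also run on simulated counts that held counting error only, which cannot show how it behaves with further spread between libraries. The work was done in Python 3.11.15 with scipy 1.17.1, numpy 2.4.6, pandas 2.3.3 and matplotlib 3.10.9. The opposite-strand gene was the protein-coding gene with the longest overlap, else any gene, else one starting within 1000 bases. Members, lists and tests were chosen with earlier results of these data known. Named members are the 15 with the highest TPM, the 10 highest above their opposite-strand gene, the 10 with the largest library ratios among those called, those on the antisense list, those opposite listed genes and the 3 on each side of the threshold; others are marked. The values of 1 named member are not reported here. Alternatives were other thresholds, pseudocounts, units, quantifications, size factors (DESeq2 1.42.0), opposite-strand genes and each replicate left out. Sequences are from GENCODE M21 transcripts and RefSeq promoters; none is printed where a UTR is annotated.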

Additional observations from a re-analysis of the deposited data

How the results depend on the processing

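The number of members was 225 at a mean of 20 counts, 191 at 10 counts in every library and 695 on read-derived counts, and 232 to 415 when each replicate was left out; it was 232 without replicate 3. The median level, 0.342 TPM as the mean over libraries, was 0.55 in FPKM, 1.12 in TPM rescaled to protein-coding genes, 0.148 in read-derived TPM and 0.223 without replicate 3. The median log2 ratio to the opposite-strand gene, -4.12, was -4.46 and -2.68 at pseudocounts of 0.01 and 1, -3.68 in read-derived TPM and -4.54 for opposite-strand genes at 1 TPM or more. The count of members differing between libraries, 203, was 117 at a mean of 20 counts and 90 on antisense genes chosen on replicates 1 and 2 alone. Left-out replicates gave 29 to 176, the lowest without replicate 3. The count highest in replicate 3, 180, was 99 at a mean of 20 counts and 68 on genes chosen on replicates 1 and 2 alone. Member ratios differing from the opposite-strand gene, 186, were 105 at a mean of 20 counts in both, and 25 to 158 with a replicate left out, 25 without replicate 3. Fewer genes enter at a mean of 20 counts; the other causes were not tested. Of the named members, all 47 kept their call with DESeq2 size factors; of the 40 that could be tested on read-derived counts 31 kept it, 6 gained and 3 lost one, and no member called in both changed its highest library. The 332 members with at most 90% overlap gave 194 calls between libraries, 178 of them highest in replicate 3. Of all genes tested 16.2% were called and 11.3% called and highest in replicate 3. The shares over all genes at a mean of 20 counts are not given here. No paired analysis was possible because there is 1 group. Depth limits the scarcest members: with 10 counts on average, ratios between libraries are imprecise and a count of 0 sets only an upper limit.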
